A study of Mus musculus with 3 samples.

Results

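Genes of the pentose phosphate pathway and of the other main NADPH-supplying reactions were followed across 3 one-colour Agilent arrays of NIH3T3 cells, an established line of mouse fibroblasts. The 8 genes were G6pdx, Pgls, Pgd, Taldo1, Tkt, Me1, Idh1 and Idh2, taken as a list of names by a rule that uses no measured value, though with earlier results of these arrays known, and with every probe of each gene. They were 8 of 20660 genes that could be named on the array, and 10 of its 55681 probes. Of the 8 genes, 7 had 1 probe each and Me1 had 3. Each member probe was printed 1 time per array.

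The study asked how compounds that act on retinoic acid receptor alpha alter gene expression, and it compared AR7, its starting activator of chaperone-mediated autophagy, with BMS614, an antagonist of that receptor. The 3 conditions were cells without additions (None), cells with 20 µM AR7 and cells with 20 µM BMS614, and exposure lasted 24 h. All 3 cultures were of the same line, labelled WT, and no engineered allele was named. They were grown to confluency in DMEM, with fetal bovine serum per the labels and newborn calf serum per the study's methods. The compounds were dissolved in DMSO, and the sources used here did not state whether the cells labelled None received DMSO. Each condition had 1 array, so the differences had no check by replicates and no test was run. The AR7 and BMS614 differences from None both used the single None array, while the difference between the 2 compounds used it only in the shared normalization and filter.

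The pentose phosphate pathway starts from glucose 6-phosphate. Its oxidative branch makes NADPH and ribulose 5-phosphate, and its reversible branch exchanges sugar phosphates between ribose and glycolysis. Malic enzyme and the NADP-dependent isocitrate dehydrogenases supply NADPH from malate and isocitrate, and cells spend NADPH on fatty acid and sterol synthesis and on keeping glutathione and thioredoxin reduced. Several of these genes are known targets of the transcription factor NRF2, which binds antioxidant response elements.

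Pgd, the later of the NADPH-making enzymes of the oxidative branch, was the member that stood apart. Its signal was higher by 33.9% with AR7 than in None and by 28.9% than with BMS614, and it differed from None by 3.92% with BMS614. The other 7 genes, each by its brightest probe, lay within 10.6% of None with either compound. G6pdx, the entry enzyme of the same branch, differed from None by 4.02% with AR7, within the spread of repeated spots.

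Promoter sequences of the 3 members whose window held the core of an antioxidant response element are shown first, since NRF2 is a known regulator of these enzymes. Windows ran from 250 bases before to 20 bases after each start site of RefSeq on the mouse build GRCm38.p6, and all 8 members matched, with 11 windows. The letters searched were TGACNNNGC on both strands. The core was found in 3 of the 11 member windows, those of G6pdx, the downstream start of Pgd and the first start of Me1. It was found in 3632 of all 32851 windows (11.1%), and in at least 1 window of 3378 of 27025 genes (12.5%). Lower case marks the window 5′ to 3′ along the gene and capitals mark the core.
G6pdx, chrX:74428861-74429130, minus strand: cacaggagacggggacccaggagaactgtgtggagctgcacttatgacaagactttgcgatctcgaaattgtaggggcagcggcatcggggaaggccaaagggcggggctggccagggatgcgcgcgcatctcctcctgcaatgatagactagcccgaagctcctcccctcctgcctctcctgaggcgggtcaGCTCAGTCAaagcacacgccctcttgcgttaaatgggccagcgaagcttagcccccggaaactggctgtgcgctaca
Pgd first start, chr4:149166686-149166955, minus strand: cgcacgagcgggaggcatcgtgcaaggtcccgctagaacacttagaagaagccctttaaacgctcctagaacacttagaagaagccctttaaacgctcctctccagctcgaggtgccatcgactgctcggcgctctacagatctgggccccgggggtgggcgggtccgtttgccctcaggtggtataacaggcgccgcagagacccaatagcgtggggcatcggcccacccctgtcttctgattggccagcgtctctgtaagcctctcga
Pgd downstream start, chr4:149166063-149166332, minus strand: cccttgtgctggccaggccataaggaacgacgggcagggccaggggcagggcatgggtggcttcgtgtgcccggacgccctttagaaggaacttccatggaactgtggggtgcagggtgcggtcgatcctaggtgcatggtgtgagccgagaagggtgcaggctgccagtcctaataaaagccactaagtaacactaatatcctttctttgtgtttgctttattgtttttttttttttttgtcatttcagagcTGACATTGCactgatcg
Me1 first start, chr9:86695895-86696164, minus strand: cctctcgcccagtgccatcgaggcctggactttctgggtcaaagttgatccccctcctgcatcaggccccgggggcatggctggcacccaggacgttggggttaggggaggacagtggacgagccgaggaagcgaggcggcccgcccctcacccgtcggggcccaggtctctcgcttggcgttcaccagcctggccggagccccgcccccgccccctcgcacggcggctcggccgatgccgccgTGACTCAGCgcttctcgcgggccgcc
The G6pdx core lay on the opposite strand, where it reads TGACTGAGC, with 48 bases between it and the start. The first Pgd window held no core. The downstream Pgd start lies 623 bases downstream of the first, and its core, TGACATTGC, came 3 bases after that start and so in transcribed sequence. No core thus lay before either Pgd start within the windows. Whether the downstream start is used as a promoter in these cells was not tested. The Me1 core, TGACTCAGC, overlapped the start, with 6 of its bases before it, and it also contains the letters TGACTCA of an AP-1 site. No window of Pgls, Taldo1, Tkt, Idh1 or Idh2 held the core. A direct repeat of AGGTCA with a spacer of 5 bases, a site for retinoic acid receptors, was in 3 of all windows (0.00913%) and in no member window. A sterol response element, TCACNCCAC, was in 373 of all windows (1.14%) and in no member window. Both spellings were so rare over all windows that their absence from 11 member windows is not informative, and other spellings were not searched. These matches describe letters in the windows and were not measured as binding.

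Intensities were read as the median pixel value of each spot. They were background corrected by RMA and quantile normalized over the 3 arrays, and levels are given as log2 signal. Differences are given as log2 differences with the SD of the same difference between repeated spots, taken at like signal from 265 probes that each array carried 10 times. That SD covers spots on an array and not cultures, labelling or hybridization. A gene was called at 1.2-fold, and a separate limit was 2 SD of repeated spots. All 3 arrays lay on 1 slide with 1 scan start time. The 75th percentile of intensity was lowest in None (692) and highest with BMS614 (909), and 55.4% to 61.8% of probes were well above background. The fibroblast markers were 10 of 10 well above background on every array, with a summed signal between 679003 and 728813. Each of the 10 was lower with AR7 than with BMS614, 6 of them past 2 SD, and with AR7 against None 1 was higher and 3 lower past 2 SD, among them Thy1 (-0.23) and Sparc (-0.21). Markers of adipocytes were well above background on all arrays for 3 of 6 genes, of epithelia for 2 of 4, of blood for 1 of 3 with a probe and of endothelium for 2 of 4. Their summed signals stayed between 536 and 629, 270 and 326, 1157 and 1374, and 8913 and 9857, and Adipoq, Lep, Epcam, Krt19 and Tek were well above background on no array. Others were bright, with a log2 signal in None of 13.24 for Kdr of endothelium and 10.26 for Cd3e of blood. The fibroblast marker Col3a1 was dim, at 5.59. Fabp4, an adipocyte marker, was at -0.28 with AR7 and -0.22 with BMS614, both past 2 SD. The part of these markers in the member differences was not tested. In RNA from a whole culture, fewer cells of a kind and less RNA per cell cannot be told apart.

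All 10 member probes were well above background on all 3 arrays, and none was saturated or marked as an outlier. Their mean log2 signal ranged from 10.57 (Idh1) to 16.56 (Taldo1), so every member lay among the 7211 genes whose mean log2 signal reached 10. Before normalization, the None array was the dimmest for all 10 probes and the BMS614 array the brightest for 9 of them. The exception was Pgd, which was brightest with AR7.

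**Figure D1:**
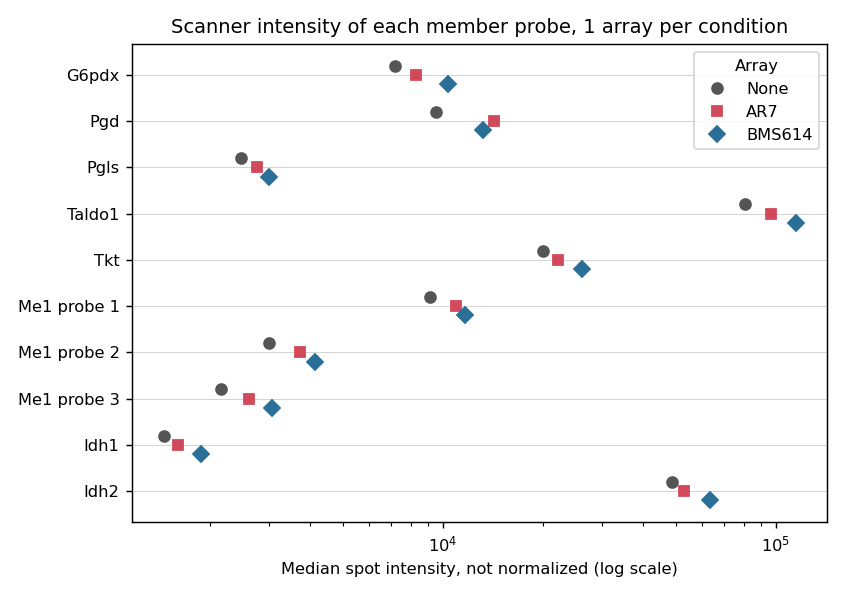
Median spot intensity of each member probe before normalization, on a log axis, with 1 point per array. For Pgd the AR7 point (14249) lies to the right of the BMS614 point (13181), whereas for the other 9 probes the order is None, AR7, BMS614.

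G6pdx encodes glucose 6-phosphate dehydrogenase, which commits glucose 6-phosphate to the oxidative branch and makes its earlier NADPH. Its intensity was 7164 in None, 8283 with AR7 and 10364 with BMS614, and after normalization its log2 signal was 12.99, 13.04 and 13.10. The normalized levels lay close together on the 3 arrays. The AR7 difference from None was 0.057 (SD of repeated spots 0.062), within the spread of spots. The BMS614 difference was 0.12 (SD 0.048), past 2 SD but short of 1.2-fold. The difference of AR7 from BMS614 was -0.06 (SD 0.045) and was -0.12 with the scanner's processed signal and -0.099 in the deposited table, both past 2 SD. G6pd2, an intronless copy of G6pdx, had a log2 signal of 7.40 in None, and whether the G6pdx probe also binds its transcript was not tested.

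Pgls encodes 6-phosphogluconolactonase, which opens the lactone that G6pdx makes. Its intensity was 2470 in None, 2758 with AR7 and 2998 with BMS614, and its log2 signal was 11.42, 11.40 and 11.26. None and AR7 lay together and BMS614 lay lowest. The AR7 difference from None was -0.026 (SD 0.055), within the spread of spots. The BMS614 difference was -0.16 (SD 0.051), 10.6% lower and past 2 SD. AR7 exceeded BMS614 by 0.14 (SD 0.045), also past 2 SD.

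Pgd encodes 6-phosphogluconate dehydrogenase, which makes the branch's other NADPH and releases ribulose 5-phosphate. Its intensity was 9525.5 in None, 14249 with AR7 and 13181 with BMS614, and its log2 signal was 13.40, 13.83 and 13.46. AR7 was high, and None and BMS614 lay together. The AR7 difference from None was 0.42 (SD 0.062), or 1.34-fold, and an interval of 2 SD of repeated spots ran from 0.30 to 0.55. The AR7 difference from BMS614 was 0.37 (SD 0.045), or 1.29-fold, with an interval from 0.28 to 0.46. The BMS614 difference from None was 0.055 (SD 0.048), within the spread of spots. Pgd was measured by 1 probe, A_52_P84096, with 1 spot per array, so its value had no further probe to be set beside.

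Among the 13804 named genes that were well above background on all 3 arrays, 301 (2.18%) had a larger AR7 difference from None than Pgd. Most of those were dim genes, whose differences scatter more: among the 7211 genes whose mean log2 signal reached 10, 17 (0.236%) lay above it. For AR7 against BMS614, 447 genes (3.24%) and 46 of the bright genes (0.638%) lay above Pgd. For BMS614 against None the numbers were 4560 (33.0%) and 2044 (28.3%), which put Pgd within the bulk of all genes. In contrast, Tkt lay in the middle of all genes for AR7 against None, with 6974 genes (50.5%) above it.

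**Figure D2:**
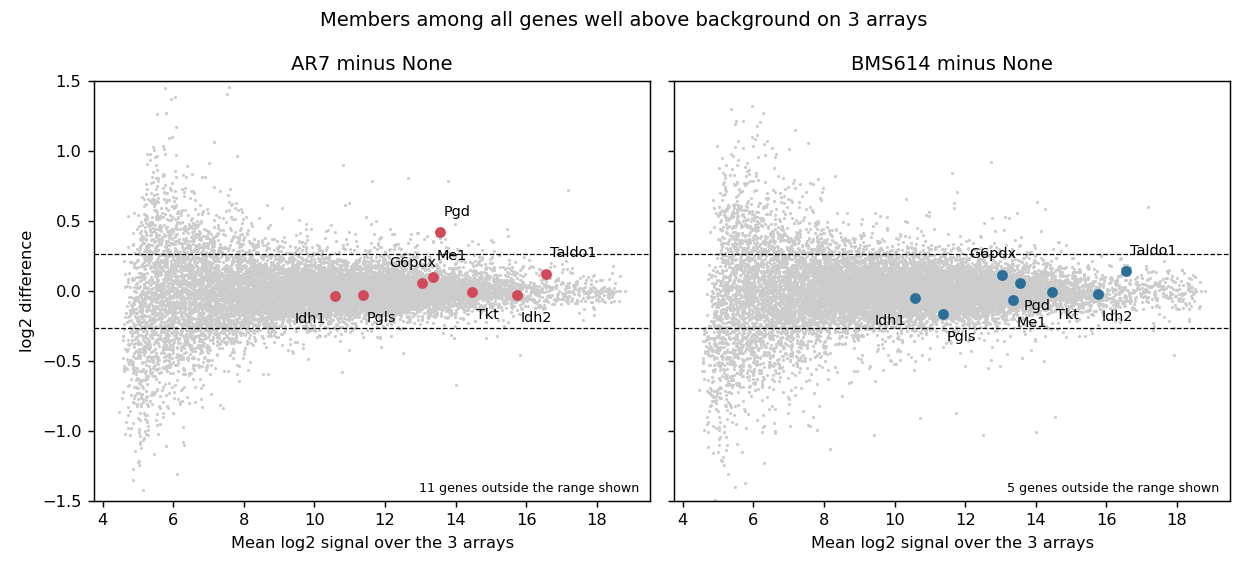
Log2 difference from None against mean log2 signal over the 3 arrays, for AR7 (left) and BMS614 (right), with grey points for 13804 genes, coloured points for the 8 members and dashed lines at 1.2-fold; 11 genes with AR7 and 5 with BMS614 lie outside the range of 1.5 shown. With AR7, Pgd (0.42) lies above nearly all grey points at its signal and the other 7 members lie among them.

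The reversible branch is represented by Taldo1, transaldolase, and Tkt, transketolase, which move carbon units between sugar phosphates. The intensity of Taldo1 was 80792.7 in None, 96874.2 with AR7 and 114739 with BMS614, and its log2 signal was 16.48, 16.60 and 16.62. Both compounds lay above None and close to each other. The differences from None were 0.12 (SD 0.049) with AR7 and 0.14 (SD 0.045) with BMS614, both past 2 SD and short of 1.2-fold, but they depended on the scaling. Over 8 alternatives in processing, they ranged from 0.05 to 0.13 with AR7 and from 0.041 to 0.14 with BMS614, so that the smallest were near 1 SD. The difference between the compounds was -0.015 (SD 0.036), and 4 of the 8 alternatives gave the other sign.

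Transketolase gave nearly equal normalized levels. The intensity of Tkt was 19962.2 in None, 22165.7 with AR7 and 26196.8 with BMS614, and its log2 signal was 14.47 on each of the 3 arrays. The differences were -0.007 (SD 0.049) for AR7, -0.008 (SD 0.045) for BMS614 and 0.001 (SD 0.036) between the compounds, all within the spread of spots. With the scanner's processed signal the differences from None were larger in size, at -0.069 with AR7 and -0.082 with BMS614, past 1 SD but not 2 SD.

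Me1 encodes the cytosolic NADP-dependent malic enzyme, which turns malate into pyruvate. Its brightest probe, which represents the gene, had an intensity of 9135 in None, 10948 with AR7 and 11657 with BMS614, and a log2 signal of 13.34, 13.44 and 13.28. The other probes had log2 signals of 11.70, 11.86 and 11.74, and of 11.22, 11.33 and 11.30, in the same order of arrays. AR7 was the highest array for each of the 3 probes. The AR7 differences from None were 0.10 (SD 0.062), 0.16 (SD 0.055) and 0.11 (SD 0.055), of which the first was within 2 SD and the others past it. The BMS614 differences had different signs, at -0.062 (SD 0.048), 0.042 (SD 0.051) and 0.082 (SD 0.051), and all were within 2 SD. Between the compounds, the probes gave 0.16 (SD 0.045), 0.11 (SD 0.045) and 0.028 (SD 0.045), so the brightest differed most and the dimmest did not pass 2 SD. The 3 probes share a gene and a labelled RNA sample on each array and are not replicates of a condition.

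Idh1 and Idh2 encode the NADP-dependent isocitrate dehydrogenases of the cytosol and of mitochondria. The intensity of Idh1 was 1453 in None, 1600 with AR7 and 1877.5 with BMS614, and its log2 signal was 10.60, 10.56 and 10.55. The intensity of Idh2 was 48777.8, 53085.6 and 63240.2, and its log2 signal was 15.76, 15.73 and 15.74. Neither gene had an array that stood apart. The differences from None with AR7 were -0.039 (SD 0.057) for Idh1, which was 0.029 with the scanner's processed signal, and -0.027 (SD 0.049) for Idh2. With BMS614 they were -0.05 (SD 0.065) and -0.021 (SD 0.045), and between the compounds 0.011 (SD 0.053) and -0.006 (SD 0.036), all within the spread of spots. The last of these had no settled sign, ranging from -0.007 to 0.008 over the alternatives.

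**Figure D3:**
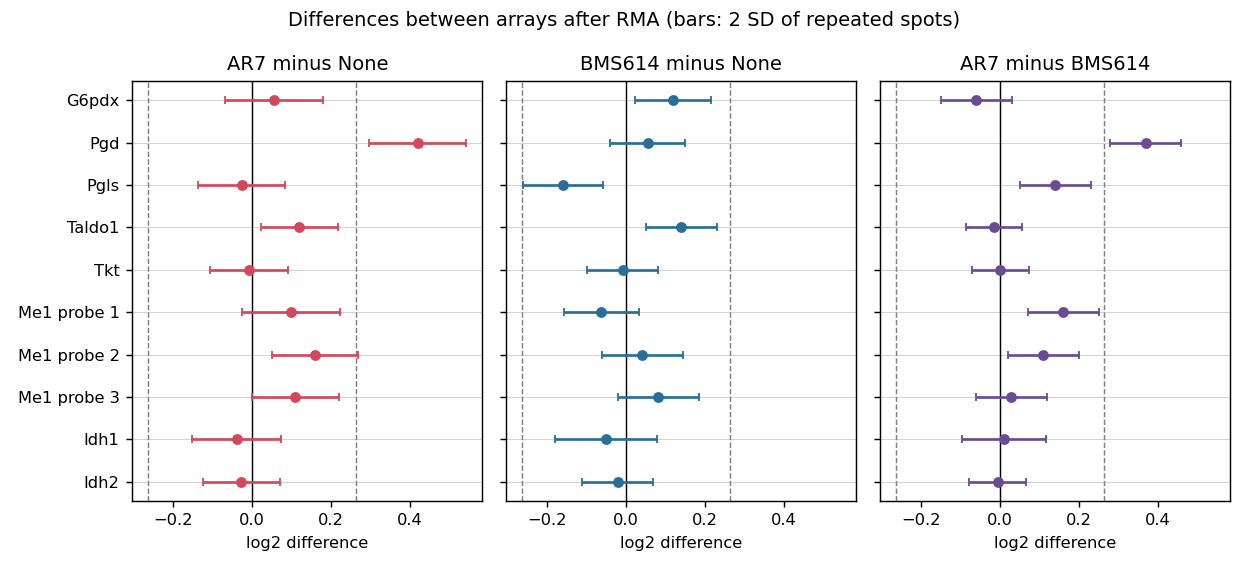
Log2 differences between arrays for the 10 member probes, with bars of 2 SD of repeated spots and dashed lines at 1.2-fold. Pgd is the member past the dashed lines, at 0.42 for AR7 minus None and 0.37 for AR7 minus BMS614, and it lies at 0.055 for BMS614 minus None.

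Counted over the members for AR7 against None, 1 of 8 genes was at least 1.2-fold higher (Pgd) and 0 were lower, where 12.0% of all 13804 genes were called, 5.72% higher and 6.28% lower. Among the 7211 bright genes, a background chosen after the data were seen, 2.07% were called. Past 2 SD, 2 of the 8 were higher (Pgd and Taldo1) and 0 lower, beside 18.9% of all genes, 9.48% higher and 9.43% lower, and 22.6% of the bright genes. In sign, 4 members were higher and 4 lower. The median of their differences was 0.025, beside -0.0054 over all genes. The count of 1 in 8 is close to the share over all genes and rests on a single gene.

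For BMS614 against None, 0 of the 8 members reached 1.2-fold, where 14.2% of all genes did, 6.64% higher and 7.53% lower, and 3.51% of the bright genes. The difference was past 2 SD for 3 members, higher for G6pdx and Taldo1 and lower for Pgls, beside 26.2% of all genes, 13.3% higher and 12.9% lower, and 31.5% of the bright genes. The median was -0.014, beside -0.0023 over all genes. For AR7 against BMS614, 1 member reached 1.2-fold (Pgd, higher), where 11.8% of all genes did, 5.90% higher and 5.91% lower, and 3.15% of the bright genes. Past 2 SD, Pgd, Pgls and Me1 were higher with AR7 and no member was lower (G6pdx was lower past 2 SD with the processed signal and in the deposited table), beside 28.7% of all genes, 14.5% higher and 14.2% lower, and 39.4% of the bright genes. The median was 0.006, beside 0.0 over all genes.

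The split of all calls depended on the scaling. Of the genes called for AR7 against None, 47.7% were higher, beside 73.3% with the scanner's processed signal, scaled to the 75th percentile, 70.6% in the deposited value table, and 59.6% to 60.2% with normexp, 75th percentile or spike-in scaling. For BMS614 against None 46.9% were higher, beside 62.8% with the processed signal. For AR7 against BMS614, 815 were higher and 816 lower, whereas 63.2% were higher in the deposited table. The Pgd difference ranged from 0.40 to 0.48 for AR7 against None and from 0.36 to 0.40 for AR7 against BMS614. It was past 1.2-fold in 8 of 8 alternatives, though averaging probes and keeping outlier spots could not alter its single unmarked probe. The sign was kept in all 8 alternatives for 7 members with AR7 (not Idh1) and for 7 with BMS614 (not Me1, which was 0.021 as the mean of its probes).

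**Figure D4:**
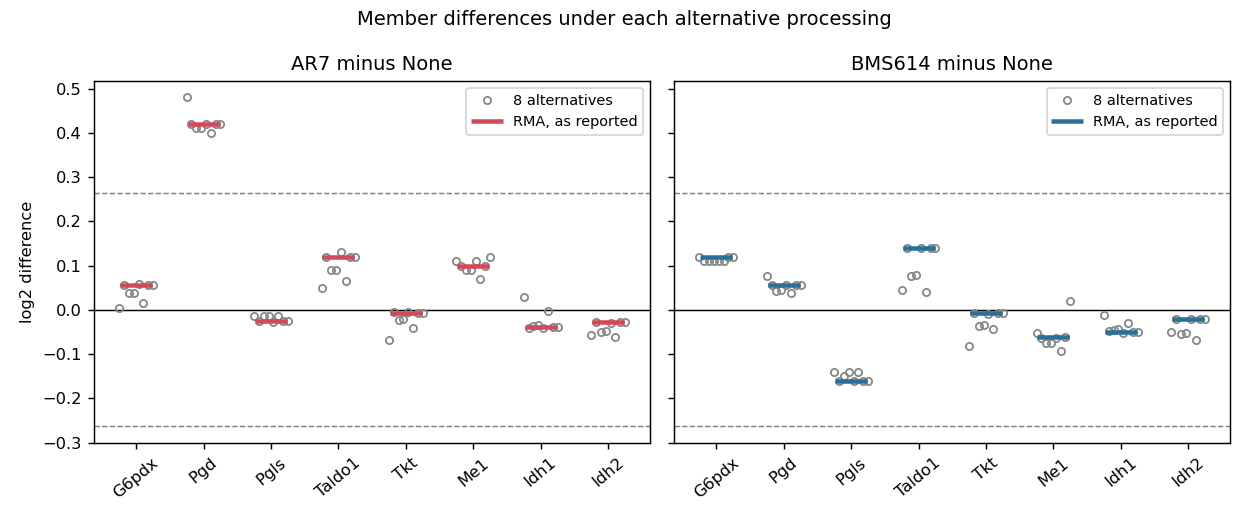
Log2 difference from None of each member gene as reported (coloured bar) and under 8 alternatives in processing (open circles), with dashed lines at 1.2-fold. Pgd stays between 0.40 and 0.48 with AR7, while with BMS614 Taldo1 ranges from 0.041 to 0.14 and Me1 from -0.092 to 0.021.

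The genes around the members were taken from 5 lists, with 62 genes in all, of which 58 were well above background on all 3 arrays. With AR7, 7 of the 58 (12.1%) reached 1.2-fold, 5 higher and 2 lower, beside 12.0% of all genes. With BMS614, 5 of the 58 (8.62%) did, 3 higher and 2 lower, beside 14.2% of all genes. Over genes of all signal levels, the shares at 1.2-fold were thus near the background with AR7 and below it with BMS614. Among genes whose mean log2 signal reached 10, 4 listed genes with AR7 and 3 with BMS614 reached 1.2-fold. Of all such bright genes 2.07% and 3.51% did, so the reading depends on the background taken. Past 2 SD, 12 of the 58 were higher and 2 lower with AR7, where 9.48% of all genes were higher and 9.43% lower. With BMS614, 13 were higher and 8 lower, where 13.3% of all genes were higher and 12.9% lower. The medians were 0.038 and 0.013.

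Outside the members, no gene listed for the pentose phosphate pathway was higher past 2 SD with either compound. Of 11 genes of its branches and sugar entry, 9 were well above background, and Tktl1 and Tktl2, which encode relatives of transketolase, were well above background on no array. With AR7 0 of the 9 were higher and 2 lower past 2 SD (9.48% and 9.43% of all genes). With BMS614 0 were higher and 1 lower (13.3% and 12.9%), and the medians were -0.083 and -0.0046. Prps2, which makes phosphoribosyl pyrophosphate from ribose 5-phosphate, was at -0.17 with AR7 (SD 0.057) and at 0.023 with BMS614. Dera, deoxyribose-phosphate aldolase, was at -0.15 with AR7 (SD 0.057). Rpe, ribulose-phosphate epimerase, was at -0.15 with BMS614 (SD 0.051). Shpk, sedoheptulokinase, reached 1.2-fold at low signal and within 2 SD, at -0.32 with AR7 (SD 0.38) and -0.61 with BMS614 (SD 0.33). So did G6pd2 with BMS614, at -0.32 (SD 0.19).

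The next list held 14 measured genes of other NADPH and NADP supply and of related dehydrogenases, among them the Idh3 subunits, whose enzyme makes NADH. Of these, 3 were higher and 0 lower past 2 SD with AR7 (9.48% and 9.43% of all genes). With BMS614, 6 were higher and 3 lower (13.3% and 12.9%), and the medians were -0.0011 and 0.081. Me3, a mitochondrial malic enzyme read at low signal, was at -0.47 with AR7 (SD 0.38) and was the one gene of this list at 1.2-fold. Nadk, the cytosolic NAD kinase that makes NADP, was at 0.17 with AR7 (SD 0.062), though its other probe was at -0.00 with AR7. Me2, the mitochondrial malic enzyme that works mainly with NAD, was at 0.14 with AR7 (SD 0.057) and 0.19 with BMS614 (SD 0.065). Mthfd2l, a mitochondrial enzyme of folate metabolism, was at 0.16 with either compound (SD 0.076 and 0.065). Mthfd1, a cytosolic enzyme of folate metabolism, was at 0.20 with BMS614 (SD 0.045). Aldh1l1, which oxidizes formyl-tetrahydrofolate, was at -0.20 with BMS614 (SD 0.096), and Idh3b, a subunit of the NAD-dependent isocitrate dehydrogenase, was at -0.18 (SD 0.048). The other subunits of that enzyme, Idh3a and Idh3g, were at 0.14 (SD 0.048) and 0.13 (SD 0.045) with BMS614, so they count among the 6 higher and Idh3b among the 3 lower.

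The consumers held 5 of the 7 listed genes that reached 1.2-fold with AR7 and 2 of the 5 with BMS614. Of 15 measured, 5 were at least 1.2-fold higher with AR7 and 0 lower, and with BMS614 2 were higher and 0 lower, with medians of 0.069 and 0.065. Over all genes 5.72% were higher and 6.28% lower at that limit with AR7, and 6.64% and 7.53% with BMS614. Past 2 SD, 5 were higher and 0 lower with AR7 (9.48% and 9.43% of all genes), and 6 higher and 2 lower with BMS614 (13.3% and 12.9%). The list was drawn up with earlier results of these arrays known, so its counts are a description. Nqo1, the quinone reductase and a known NRF2 target, had an intensity of 1300 in None, 2626 with AR7 and 1976 with BMS614, and log2 differences from None of 0.90 (SD 0.057) and 0.20 (SD 0.065). Txnrd1, cytosolic thioredoxin reductase, had log2 signals of 13.96, 14.26 and 14.03 and was at 0.29 with AR7 (SD 0.049) and 0.065 with BMS614. Like Pgd, both had their highest log2 signal with AR7. Cbr3, a carbonyl reductase, was at 0.35 with AR7 (SD 0.076) and 0.028 with BMS614, and Blvrb, biliverdin reductase B, was at 0.30 (SD 0.049) and 0.14 (SD 0.045). Cbr1, a related carbonyl reductase, was higher with both compounds, at 0.32 (SD 0.057) and 0.40 (SD 0.065). Por, which passes electrons from NADPH to cytochromes P450, was higher with BMS614, at 0.30 (SD 0.045), and at 0.069 with AR7. Gclm, a subunit of the enzyme that starts glutathione synthesis and a reference gene here, was at 0.24 with AR7 (SD 0.076) and -0.021 with BMS614. Nqo1, Txnrd1 and Gclm were likewise chosen with those results known.

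**Figure D5:**
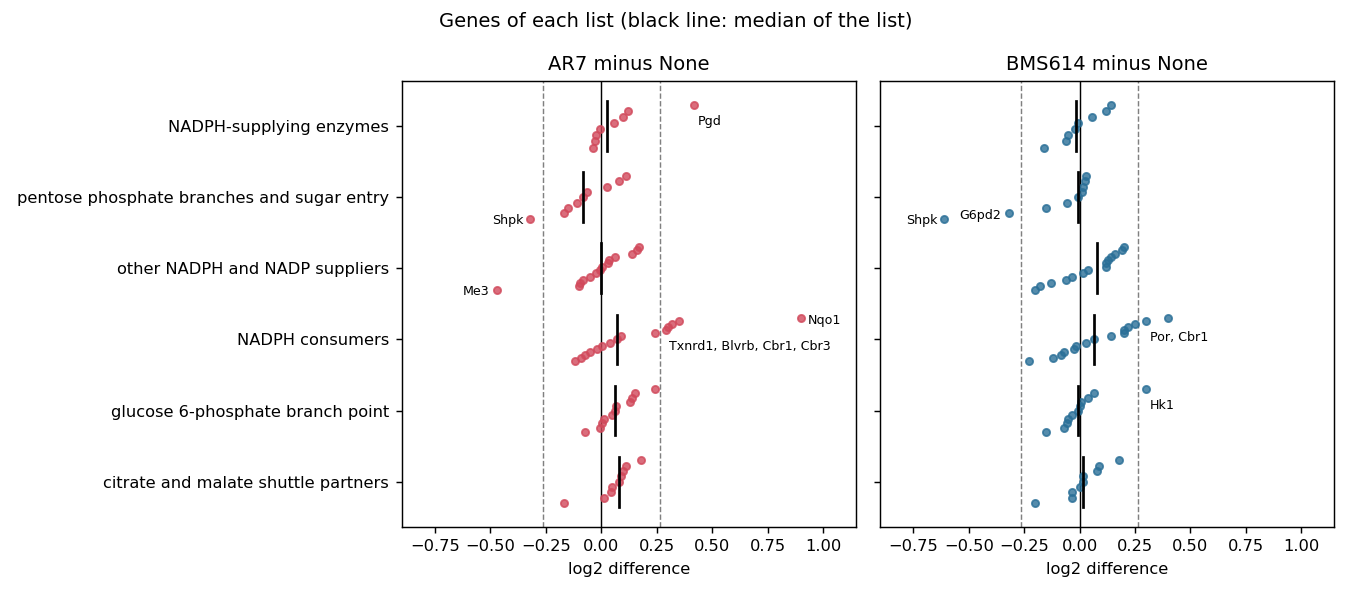
Log2 differences from None of the genes of 6 lists, the members at the top and the Idh3 subunits in the list of other suppliers, for AR7 (left) and BMS614 (right), with a black line at each median and dashed lines at 1.2-fold. With AR7 the points to the right of the upper dashed line are Pgd (0.42), Nqo1 (0.90), Cbr3, Cbr1, Blvrb and Txnrd1.

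At the glucose 6-phosphate branch point, 2 of 11 genes were higher and 0 lower past 2 SD with AR7 (9.48% and 9.43% of all genes), and 1 higher and 2 lower with BMS614 (13.3% and 12.9%), with medians of 0.062 and -0.0063. The 2 with AR7 were Slc2a1 and Pfkl. Slc2a1, the glucose transporter GLUT1, was at 0.24 with AR7 (SD 0.062) and 0.006 with BMS614. Hk1, hexokinase 1, was at 0.30 with BMS614 (SD 0.048), but its other probe was at -0.08 with either compound. Pfkl, the liver-type phosphofructokinase, was at 0.15 with AR7 (SD 0.057) and -0.15 with BMS614 (SD 0.065). Pfkm, the muscle type, was printed 10 times on each array and was at 0.003 with AR7 and -0.069 with BMS614 (SD of the mean of its spots 0.016). The 9 partners of Me1 and Idh1 in citrate and malate exchange had medians of 0.08 with AR7 and 0.016 with BMS614. Past 2 SD, 0 of them were higher with BMS614 (13.3% of all genes) and 2 with AR7 (9.48%). These were the mitochondrial citrate carrier Slc25a1, at 0.18 (SD 0.062), and cytosolic malate dehydrogenase Mdh1, at 0.10 (SD 0.049).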

How the data were processed

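The authors deposited the Feature Extraction 10.7.3.1 intensity of each spot for 3 arrays, not yet normalized to each other, and a value table that rises linearly with each array's intensity after background subtraction, which served as an alternative. Per the labels' processing notes and the study's methods, they used RMA with the oligo package. Here the RMA convolution background was applied to the median pixel intensity of each array, followed by quantile normalization over the 3 arrays and log2. Controls and outlier spots were left out. R 4.3.3 with limma 3.58.1 and Python 3.11.15 with numpy 2.4.6 and pandas 2.3.3 were used. RefSeq accessions matched to GRCm38.p6 gene names named 27235 of 55681 probes (48.9%). Where a gene had several probes, the brightest on average stood for it. The members and lists were chosen with earlier results of these data known. The members were always named, and of each list at most the 6 genes with the largest differences past 2 SD, beside Nqo1, Gclm and Txnrd1. Genes at 1.2-fold outside that rule were named after their values were seen. The counting was tested on simulated data. The number of arrays limits the precision.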

Additional observations from a re-analysis of the deposited data

How the results depend on the processing

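At 1.2-fold, no member gained or lost its call under the 8 alternatives in processing, and Pgd stayed past that limit in both comparisons that called it. Past 2 SD, the calls of Taldo1 and G6pdx did change. Keeping outlier spots could not alter a member value, since no member spot was so marked. Averaging probes could not alter a gene with 1 probe, such as Pgd. On recomputing, 178 member values moved by less than 1 SD of repeated spots, those that could not change included, and 14 by more. Of the counts and medians, 76 stayed within their limit while 18 did not. The count of members past the limit with AR7 against None went from 1 to 0 at 1.5-fold and 2-fold. With AR7 against BMS614 it went from 1 to 2 at 1.1-fold and to 0 at 1.5-fold and 2-fold. With BMS614 against None it went from 0 to 2 at 1.1-fold. The count over the 5 lists with AR7, 7 as reported, was 4 in the deposited value table, 17 at 1.1-fold, 1 at 1.5-fold, 0 at 2-fold and 4 among genes whose mean log2 signal reached 10. With BMS614, 5 as reported, it was 3 with the processed signal, 3 with normexp, 20 at 1.1-fold, 1 at 1.5-fold, 0 at 2-fold, and 3 among genes whose mean log2 signal reached 8 or 10. The minimum of 10 was chosen after the data were seen. The share of all genes at 1.2-fold fell from 12.0% to 3.57% for AR7, from 14.2% to 5.11% for BMS614 and from 11.8% to 3.62% for AR7 against BMS614 with normexp. Spike-in scaling moved the median of all probes by 0.18 with AR7, 0.34 with BMS614 and -0.16 between them, and values under it are relative to that median. The causes were not tested. The alternative on mean pixel intensity was not run, since the scanner columns used here hold the median. No paired analysis was possible because a single array stood for each condition. Dim genes limit the lists, since the SD of repeated spots was 0.383 at the lowest signals and 0.0493 at the highest for AR7 against None.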
